A study of Mus musculus with 12 samples.

Results

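Teneurins, latrophilins and fibronectin leucine-rich transmembrane proteins (FLRTs) are cell surface proteins that bind one another across the gap between neighbouring cells. The group examined here held the 4 teneurin genes Tenm1 to Tenm4, the 3 latrophilin genes Adgrl1 to Adgrl3 and the 3 FLRT genes Flrt1 to Flrt3, taken by gene symbol. These are 10 of the 46603 genes in the deposited count tables, and all 10 passed the filter on low counts at both stages.

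RNA came from microdissected neocortex of Chd8+/+ and Chd8+/- mice on a C57Bl/6J background, at embryonic day 12.5 (E12.5, both hemispheres) and postnatal day 5 (P5, one hemisphere). There were 3 libraries for each genotype and stage, 12 in all. The Chd8+/- mice carried one null allele, made by deleting a loxP-flanked exon with a β-actin Cre that was then removed by crossing, and so every cell type was heterozygous. The Chd8+/+ mice carried no null allele. CHD8 is a chromatin remodeler, and the comparison asks how the loss of one copy alters gene expression in the developing neocortex. Stage cannot be told apart from the count table, the sequencing run and the number of hemispheres.

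Teneurins are large proteins with a single membrane span and an extracellular part that binds teneurins on other cells and latrophilins. Latrophilins are adhesion G protein-coupled receptors that sit on both sides of synapses, and FLRTs bind latrophilins and the netrin receptors of the UNC5 family. In the cortex these contacts are known to steer migrating neurons, to guide axons to matching targets and to help synapses form.

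Library depth ran from 38774591 to 54695236 counts, and each group held 1 female and 2 male libraries by Xist and Y-linked genes. Chd8 itself was checked first. It was 1.42-fold lower in Chd8+/- libraries at E12.5 (log2 fold change -0.51 ± 0.04 SE, edgeR quasi-likelihood adjusted p = 0.00562) and 1.53-fold lower at P5 (-0.61 ± 0.03 SE, edgeR adjusted p = 7.21e-05), with no overlap between genotypes at either stage. Markers of neocortex summed to between 719.7 and 1015 CPM (read counts scaled to the TMM-normalised library size) in every library, and the 4 Hox markers of hindbrain and spinal cord to at most 0.115 CPM. One library stood apart: Chd8+/- replicate 2 at E12.5 held 222 CPM of Col1a1, a collagen of meningeal fibroblasts, against 76.0 to 127 CPM in the other E12.5 libraries. The same library held 47.6 CPM of Neurod6, a gene of cortical projection neurons, against 68.3 to 125.7 CPM.

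The genes differ greatly in size. On the GRCm38 assembly Tenm2 covers 1229309 bases (chr11:36006656-37235964, minus strand), Tenm1 901261 bases (chrX:42527866-43429126, minus strand), Adgrl3 804996 bases (chr5:81020138-81825133, plus strand), Tenm4 739850 bases (chr7:96171244-96911093, plus strand) and Tenm3 616345 bases (chr8:48227682-48844026, minus strand). Adgrl2 spans 174973 bases (chr3:148815583-148990555, minus strand), Flrt2 92990 bases (chr12:95692226-95785215, plus strand) and Adgrl1 41850 bases (chr8:83900105-83941954, plus strand). Flrt3 spans 20556 bases (chr2:140650914-140671469, minus strand) inside Macrod2, and Flrt1 13716 bases (chr19:7092014-7105729, minus strand) inside Macrod1. Each teneurin and Adgrl3 had a longer span than at least 99.3% of the genes tested, although their merged exons came to only 11132 to 21030 bases. Exons of Tenm1, Tenm3, Tenm4 and the 3 latrophilins share bases with a neighbouring or antisense gene, at most 1582 bases for a single one (Gm16054 with Adgrl3), and those reads cannot be assigned to one gene without strand. The exons of Tenm2, Flrt1, Flrt2 and Flrt3 share none.

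Start regions from RefSeq (GRCm38.p6) were found for 9 of the 10 genes, with 12 start sites in all, and not for Flrt1. The sequences shown are those of the 3 teneurins with the largest genotype difference at P5, and of Flrt3, the gene with the steepest fall between the stages. Each holds the 200 bases that begin about 250 bases before the RefSeq start site, read along the strand of the gene. The windows are chrX:43274835-43275034 for Tenm1, chr11:36944292-36944491 for Tenm2, chr8:48674741-48674940 for Tenm3 and chr2:140671527-140671726 for Flrt3, all on the minus strand. Capitals mark CG dinucleotides and TATAAA on either strand.
Tenm1: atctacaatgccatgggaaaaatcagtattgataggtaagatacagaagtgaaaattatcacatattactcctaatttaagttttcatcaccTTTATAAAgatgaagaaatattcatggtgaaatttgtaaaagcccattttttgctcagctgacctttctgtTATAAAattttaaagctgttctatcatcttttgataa
Tenm2: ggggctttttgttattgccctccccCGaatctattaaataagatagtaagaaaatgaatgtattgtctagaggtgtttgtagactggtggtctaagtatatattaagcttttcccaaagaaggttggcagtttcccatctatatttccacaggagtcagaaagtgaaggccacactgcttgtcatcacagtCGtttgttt
Tenm3: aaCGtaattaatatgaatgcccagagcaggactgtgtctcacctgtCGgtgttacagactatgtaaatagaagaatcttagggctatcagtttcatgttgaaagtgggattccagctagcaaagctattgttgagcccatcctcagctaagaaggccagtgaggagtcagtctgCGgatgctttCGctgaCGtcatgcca
Flrt3: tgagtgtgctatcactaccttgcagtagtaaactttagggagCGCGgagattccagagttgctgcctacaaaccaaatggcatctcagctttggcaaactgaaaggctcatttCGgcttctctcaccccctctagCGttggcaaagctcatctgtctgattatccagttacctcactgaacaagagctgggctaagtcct
The Tenm1 window held no CG, and 3 matches to TATAAA counted on both strands, of which a pair on opposite strands overlap. At least 1 such match is found in 9.14% of all 32851 RefSeq windows of this length. The Tenm2 window held 2 CG, the Tenm3 window 5 and the Flrt3 window 4, beside a median of 4 over all windows. The latrophilin windows ranged from 3 CG at Adgrl2 to 16 at Adgrl1 and 31 at the first Adgrl3 start, more than in 98.3% of windows. Of the 12 member windows, 3 held GGGCGG (or CCGCCC; 24.6% of all windows), at Adgrl1 and at the 2 later of the 3 Adgrl3 starts. The E-box CACGTG occurred in the Flrt2 window alone (4.34% of all windows) and the cAMP response element TGACGTCA, which reads the same on both strands and contains 1 of the CG, in the Tenm3 window alone (0.828%). The RefSeq starts of Tenm1, Tenm2, Tenm3 and Adgrl2 lie 154341, 291722, 169335 and 35919 bases inside the 5′ end of the counted gene, so that other start sites exist which these windows do not show.

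In Chd8+/+ neocortex the members sorted into a high, a middle and a low group at E12.5, compared as CPM per kilobase of merged exon. Adgrl1 was highest at 31.0 ± 2.25 (SD, n = 3), above 89.8% of the genes tested, followed by Flrt3 at 24.8 ± 1.21 and Adgrl2 at 16.9 ± 0.65. Flrt2 (11.2 ± 0.46), Tenm3 (10.9 ± 1.54) and Tenm4 (9.91 ± 0.66) came next and overlapped as neighbours. Flrt1 (2.64 ± 0.19), Tenm2 (2.58 ± 0.24) and Adgrl3 (2.38 ± 0.24) also overlapped, and Tenm1 was lowest at 0.55 ± 0.07, below all others in every library.

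At P5 the order had changed. Adgrl1 stood at 82.5 ± 2.08 CPM per kilobase, above 97.4% of the genes tested. Tenm2 (18.7 ± 0.56), Adgrl2 (17.6 ± 0.82) and Tenm3 (17.2 ± 1.00) overlapped as neighbours below it. Flrt2 followed at 11.7 ± 0.30, then Flrt3 (6.81 ± 0.20) and Tenm4 (6.45 ± 0.17), whose ranges touched, then Adgrl3 (6.09 ± 0.04), Tenm1 (5.13 ± 0.41) and Flrt1 (3.61 ± 0.15).

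Between the stages 6 of the 10 genes rose and 2 fell in Chd8+/+ neocortex, by edgeR's quasi-likelihood test at an adjusted p under 0.05. Of all 19676 genes tested over the 12 libraries 41.4% were called higher and 41.7% lower at P5, so a call by itself says little about the members. Fold changes here and below are on the log2 scale of library-normalised counts, and CPM values are normalised by TMM over the 12 libraries.

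Tenm1 and Tenm2 had the steepest rise. Tenm1 read 10.1, 10.6 and 8.28 CPM in the E12.5 Chd8+/+ libraries and 97.6, 92.1 and 83.1 CPM at P5, a log2 fold change of 3.23 ± 0.11 SE (edgeR adjusted p = 1.43e-12). Tenm2 read 28.3, 27.7 and 32.7 CPM at E12.5 and 221, 212.6 and 208.5 CPM at P5, a change of 2.86 ± 0.08 SE (edgeR adjusted p = 7.88e-14). Both genes were thus low in the progenitor-rich E12.5 cortex and higher at P5, with every P5 library above every E12.5 library. Tenm3 rose less, by 0.65 ± 0.13 SE (edgeR adjusted p = 2.45e-04), from 121, 105 and 139 CPM to 199.6, 196 and 179 CPM. Tenm4 went the other way and fell by 0.62 ± 0.05 SE (edgeR adjusted p = 6.11e-08), from 208, 195 and 223 CPM to 135.5, 132 and 139 CPM.

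Among the latrophilins Adgrl1 and Adgrl3 rose. Adgrl1, the latrophilin first known as the receptor of the spider toxin α-latrotoxin, read 287, 249 and 263 CPM at E12.5 and 695, 702 and 729 CPM at P5 (1.41 ± 0.06 SE, edgeR adjusted p = 9.38e-12). Adgrl3 read 39.2, 47.1 and 40.5 CPM at E12.5 and 108.7, 108.3 and 107.3 CPM at P5 (1.36 ± 0.07 SE, edgeR adjusted p = 1.12e-10). Adgrl2 stayed between 229.5 and 262 CPM in all 6 Chd8+/+ libraries, and its change of 0.05 (95% interval -0.06 to 0.16) did not pass the test.

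The FLRTs each took a different course. Flrt3 fell by 1.86 ± 0.05 SE (edgeR adjusted p = 2.95e-14), from 113.9, 125 and 123 CPM to 32.2, 34.1 and 33.0 CPM. Flrt1 rose by 0.45 ± 0.06 SE (edgeR adjusted p = 8.34e-06), from between 14.2 and 16.2 CPM to between 20.3 and 22.1 CPM. Flrt2, a ligand of UNC5 receptors on migrating neurons, stayed between 83.4 and 92.7 CPM, with a change of 0.06 (95% interval -0.06 to 0.19).

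**Figure D1:**
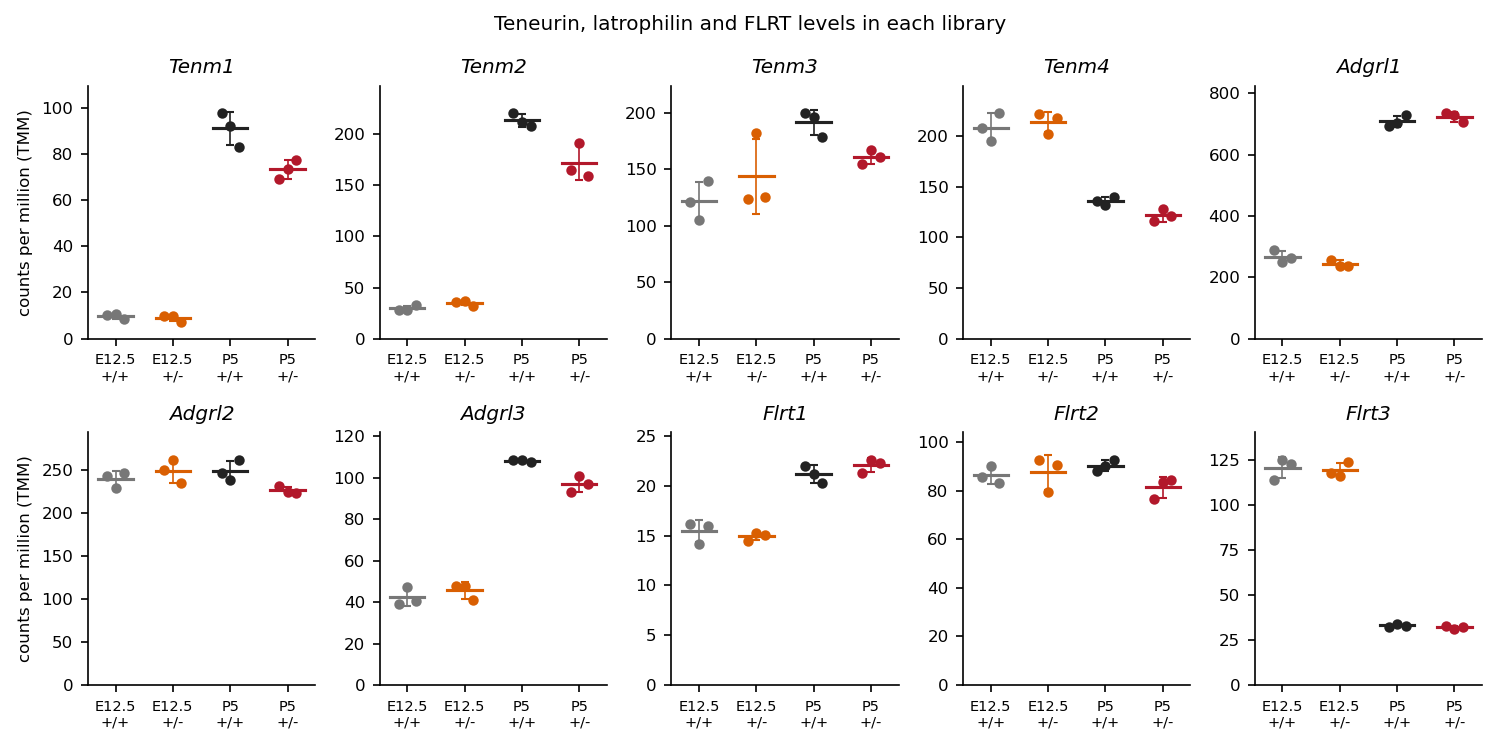
CPM (TMM-normalised over 12 libraries) of each gene, 1 point per library, with the mean and SD of 3 libraries; the vertical axes start at 0 and differ between genes. Tenm1 and Tenm2 lie near the axis at E12.5 and at 69.1 CPM or above at P5, Flrt3 shows the reverse, and the P5 Chd8+/- points of all 4 teneurins lie below the P5 Chd8+/+ points.

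These courses changed the make-up of each family. Of the summed teneurin level per kilobase, Tenm3 and Tenm4 made up 45.5% ± 1.97 and 41.4% ± 1.29 at E12.5 in Chd8+/+ (SD, n = 3), Tenm2 10.8% ± 0.38 and Tenm1 2.31% ± 0.50. At P5 Tenm2 held 39.3% ± 0.51, Tenm3 36.3% ± 0.89, Tenm4 13.6% ± 0.81 and Tenm1 10.8% ± 0.47. The FLRT sum passed from Flrt3 (64.2% ± 1.17 at E12.5, 30.8% ± 0.57 at P5) to Flrt2 (29.0% ± 0.99, then 52.9% ± 0.92). In the latrophilin sum Adgrl1 led at both stages, with 61.6% ± 1.47 and 77.7% ± 0.33. The summed teneurin level was 24.0 ± 2.36 CPM per kilobase at E12.5 and 47.4 ± 1.81 at P5, the latrophilin sum 50.3 ± 2.51 and 106 ± 2.77, and the FLRT sum 38.6 ± 1.29 and 22.1 ± 0.29.

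**Figure D2:**
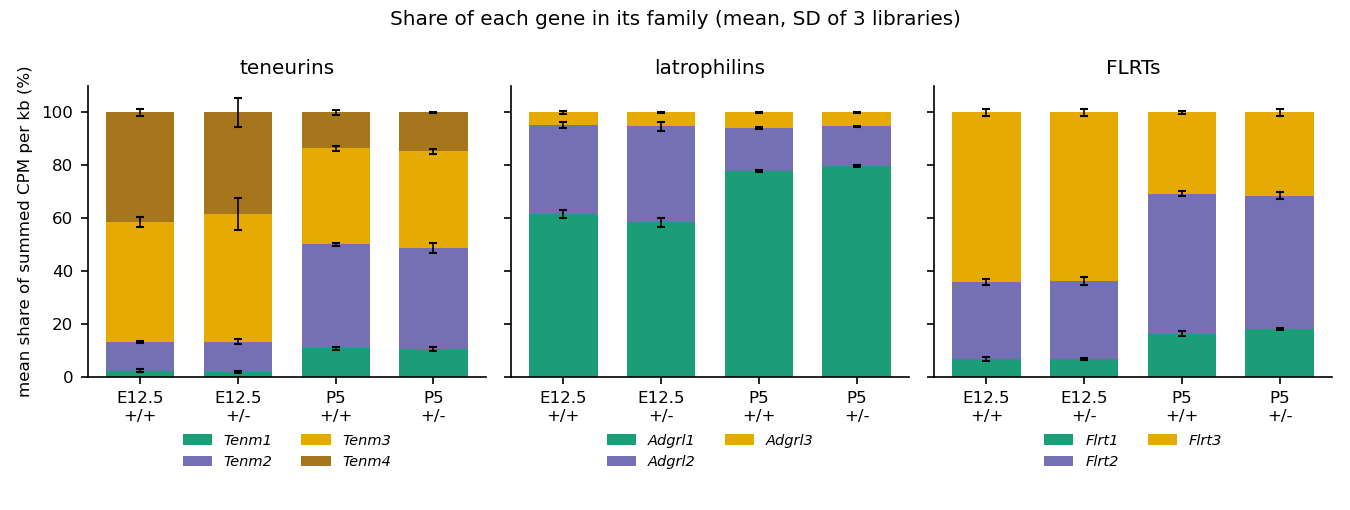
Mean share of each gene in the summed CPM per kilobase of its family, for the 4 groups of 3 libraries; the bar at the top of each segment is the SD of that gene's share. The teneurin columns pass from mostly Tenm3 and Tenm4 at E12.5 to mostly Tenm2 and Tenm3 at P5, and the FLRT columns from Flrt3 to Flrt2.

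In Chd8+/- neocortex 5 members rose and 3 fell between the stages (edgeR adjusted p under 0.05), where 41.3% of all genes were called higher and 41.6% lower. The steep members moved the same way as in Chd8+/+, with 3.04 ± 0.12 SE for Tenm1, 2.30 ± 0.08 SE for Tenm2, 1.58 ± 0.06 SE for Adgrl1, 1.09 ± 0.07 SE for Adgrl3 and -1.90 ± 0.05 SE for Flrt3. Flrt1 also rose (0.56 ± 0.06 SE) and Tenm4 fell by 0.81 ± 0.05 SE. Tenm3, at 123, 182 and 125.5 CPM at E12.5 and 155, 167 and 161 CPM at P5, changed by 0.16 ± 0.13 SE and did not pass the test (edgeR adjusted p = 0.24). The value of 182 CPM belongs to Chd8+/- replicate 2 at E12.5, the library with high Col1a1, and without it the rise of Tenm3 was 0.37 and passed (edgeR adjusted p = 0.00104). Adgrl2 fell by 0.14 ± 0.05 SE (edgeR adjusted p = 0.025), a call lost without that library (adjusted p = 0.1285), without any of 3 other Chd8+/- libraries and with DESeq2 (adjusted p = 0.084). Flrt2 gave -0.10 ± 0.06 SE and did not pass, but did so without the same library (-0.17, adjusted p = 0.0055).

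**Figure D3:**
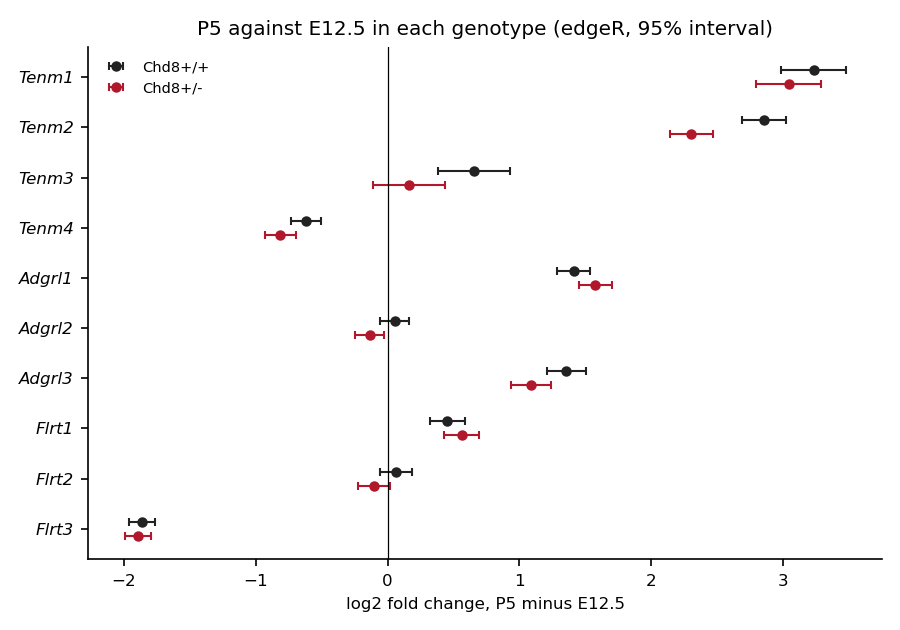
Log2 fold change from E12.5 to P5 of each gene in Chd8+/+ and in Chd8+/- neocortex, with 95% intervals from edgeR's quasi-likelihood fit. Tenm1 and Tenm2 have the steepest rise and Flrt3 the steepest fall in both genotypes, and Adgrl2 and Flrt2 lie near 0.

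At E12.5 none of the members differed between the genotypes by edgeR's quasi-likelihood test, in a comparison that called 0.00553% of 18081 genes (Chd8 alone). DESeq2 called none of the members either. By the unadjusted test 1 member passed 0.05, Tenm2 with a higher value in Chd8+/- (0.24 ± 0.08 SE, unadjusted p = 0.0123, edgeR adjusted p = 0.942), where 2.31% of all genes passed in that direction. Tenm2 read 35.7, 36.7 and 32.3 CPM in the Chd8+/- libraries and 28.3, 27.7 and 32.7 CPM in the Chd8+/+ libraries, so that the groups overlapped by 1 library. The genotypes overlapped for all 10 members, while 5.90% of all genes were lower and 5.45% higher without overlap. The other members lay between -0.14 (Adgrl1, 95% interval -0.27 to 0.00) and 0.24 (Tenm3, 95% interval -0.09 to 0.57), and the value of Tenm3 was 0.03 without Chd8+/- replicate 2. The median over the 10 members was 0.03, beside 0.00 over all genes tested.

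At P5 the teneurins, Adgrl2, Adgrl3 and Flrt2 read lower in every Chd8+/- library than in any Chd8+/+ library, while Adgrl1, Flrt1 and Flrt3 overlapped. These are 7 of 10 members without overlap in the lower direction, where 12.2% of all 18666 genes tested had this pattern, and the same 7 passed an unadjusted p of 0.05 (9.77% of all genes in that direction). The edgeR test adjusted over all genes called none of the 7 at 0.05, a level at which 0.00536% of all genes were called (Chd8 alone). Tenm1, Tenm2 and Tenm3 had an adjusted p under 0.1, as did 0.729% of all genes. DESeq2, the tool the study used, called 4 members lower, Tenm1, Tenm2, Tenm3 and Adgrl3, and 3.57% of all genes it tested. The median over the 10 members was a log2 fold change of -0.14, beside 0.00 over all genes.

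Tenm1 read 97.6, 92.1 and 83.1 CPM in P5 Chd8+/+ libraries and 69.1, 73.4 and 77.3 CPM in Chd8+/- libraries, 1.23-fold lower (-0.30 ± 0.06 SE, 95% interval -0.43 to -0.17, edgeR adjusted p = 0.095, DESeq2 adjusted p = 5.73e-04). Tenm2 read 221, 212.6 and 208.5 CPM against 165.5, 192 and 159.7 CPM, again 1.23-fold lower (-0.30 ± 0.06 SE, 95% interval -0.43 to -0.16, edgeR adjusted p = 0.0973, DESeq2 adjusted p = 3.14e-04). Tenm3, a teneurin that matches axons to their targets in the visual system and the hippocampus, read 199.6, 196 and 179 CPM against 155, 167 and 161 CPM. It was 1.18-fold lower (-0.24 ± 0.05 SE, 95% interval -0.34 to -0.13, edgeR adjusted p = 0.0973, DESeq2 adjusted p = 6.53e-04). In Tenm2 the Chd8+/- replicate 2 stood above the other libraries of its group, and without it edgeR called Tenm2 (-0.38, adjusted p = 0.0151) and Tenm3 (-0.26, adjusted p = 0.0374). Leaving out other single P5 libraries raised the edgeR adjusted p of Tenm1, Tenm2 and Tenm3 to as much as 0.39. Tenm4 read 135.5, 132 and 139 CPM against 115.9, 128 and 120.9 CPM (-0.14 ± 0.04 SE, edgeR adjusted p = 0.149, DESeq2 adjusted p = 0.0673), with the nearest libraries of the genotypes at 132 and 128 CPM. The summed teneurin level was 47.4 ± 1.81 CPM per kilobase in Chd8+/+ and 39.4 ± 2.22 in Chd8+/-. Tenm2 made up 39.3% ± 0.51 of it in Chd8+/+ and 38.1% ± 1.85 in Chd8+/-, and Tenm3 36.3% ± 0.89 and 36.7% ± 0.93.

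Among the receptors Adgrl3 read 108.7, 108.3 and 107.3 CPM in Chd8+/+ and 93.0, 100.6 and 97.0 CPM in Chd8+/- (-0.14 ± 0.04 SE, 95% interval -0.22 to -0.06, edgeR adjusted p = 0.117, DESeq2 adjusted p = 0.0479). The DESeq2 call of Adgrl3 was kept without Chd8+/- replicate 2 (adjusted p = 0.0229) and lost without any of the other 5 libraries (adjusted p from 0.11 to 0.32). Adgrl2 read 247, 239 and 262 CPM against 231, 225 and 224 CPM (-0.12 ± 0.04 SE, edgeR adjusted p = 0.197). Adgrl1, by far the highest member, read 695, 702 and 729 CPM against 736, 729 and 705 CPM, with a difference of 0.05 (95% interval -0.04 to 0.13). Flrt2 read 88.1, 90.3 and 92.7 CPM against 76.6, 83.5 and 84.3 CPM (-0.13 ± 0.04 SE, edgeR adjusted p = 0.154). The ranges of Flrt1, between 20.3 and 22.7 CPM over the 6 libraries, and of Flrt3, between 31.2 and 34.1 CPM, overlapped (0.08, 95% interval -0.05 to 0.20, and -0.03, 95% interval -0.14 to 0.07).

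**Figure D4:**
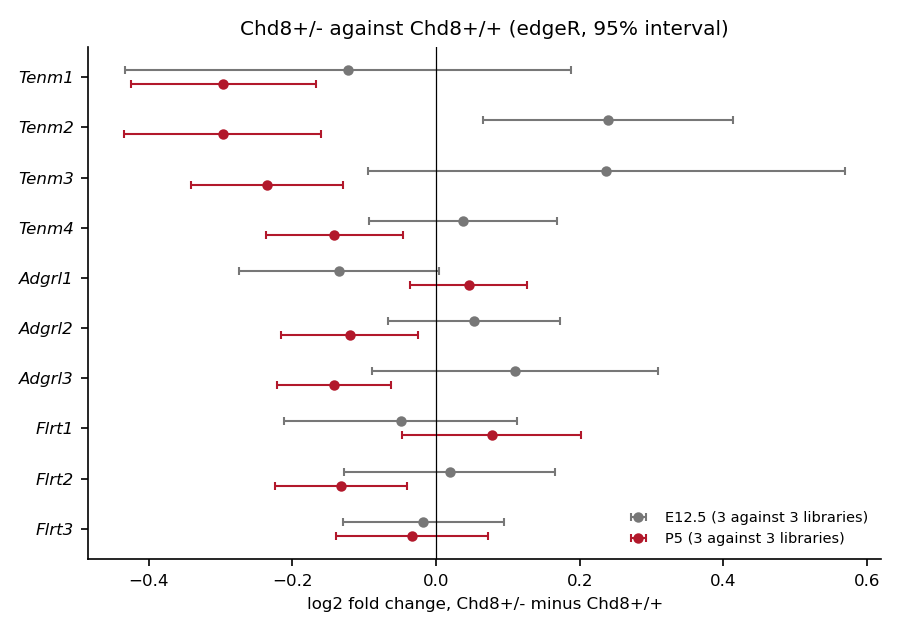
Log2 fold change between Chd8+/- and Chd8+/+ of each gene at E12.5 and at P5, 3 against 3 libraries, with 95% intervals from edgeR's quasi-likelihood fit within a stage. At P5 the intervals of 7 genes lie below 0 and those of Adgrl1, Flrt1 and Flrt3 include it, and at E12.5 the interval of Tenm2 alone lies clear of 0, on the higher side.

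Leaving out 1 library at a time, DESeq2 called Tenm2 at P5 in every case, and Tenm1 and Tenm3 in 5 of 6. Without Chd8+/+ replicate 1, Tenm2 was the only member called, in a fit that called 48 genes in all against 653 with every library. With the sex of the library as a term the DESeq2 calls were Tenm1, Tenm2 and Tenm3, in a fit that called 391 genes in all.

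The genotype difference at P5 went along with the genomic span of genes across the whole table. The tested genes were split by span into 10 bins of equal size. In the longest bin (121773 bases and more) the median log2 fold change was -0.07 and 72.8% of genes were lower in Chd8+/-, while bin 2 (2223 to 4726 bases) had a median of 0.06 and 36.6% lower. All 4 teneurins, Adgrl2 and Adgrl3 belong to bin 10, Flrt2 to bin 9, Adgrl1 to bin 8, Flrt3 to bin 6 and Flrt1 to bin 5. Set against the median of their own bin, Tenm1, Tenm2 and Tenm3 remained at -0.23, -0.23 and -0.17, and Flrt2, Tenm4, Adgrl3 and Adgrl2 at -0.09, -0.08, -0.08 and -0.06. The median span in bin 10 was 204449 bases, so that the teneurins and Adgrl3 are far longer than most genes they are set against there. With offsets that took out each library's trend with span, the edgeR values were -0.19, -0.18 and -0.13 for Tenm1, Tenm2 and Tenm3, and DESeq2 called none of the members (adjusted p = 0.0507, 0.0803 and 0.0982 for these genes). Flrt2, Adgrl2, Tenm4 and Adgrl3 then stood at -0.09, -0.05, -0.04 and -0.03 in edgeR. At E12.5 the longest bin had a median of 0.02.

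**Figure D5:**
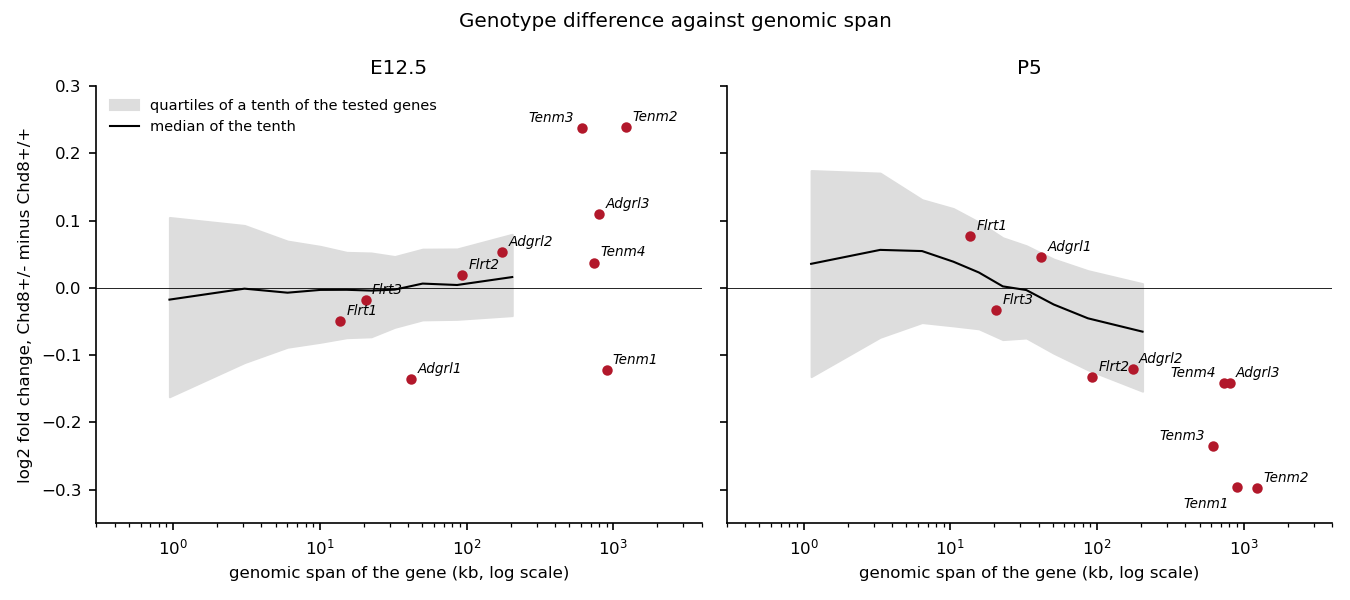
Log2 fold change between Chd8+/- and Chd8+/+ against genomic span in kilobases (log scale) at E12.5 and P5; points are the 10 members, the line and band the median and quartiles of each span bin of the tested genes, drawn at its median span. At P5 the line falls with span to -0.07 at its last point, and the teneurins and Adgrl3 lie at longer spans than the line reaches.

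Markers of other tissues also differed at P5, and in bulk RNA fewer cells of a type and less RNA per cell cannot be told apart. All 6 striatal markers read lower in Chd8+/- (unadjusted p under 0.05 for 6, DESeq2 calls for 5), with a sum of 175 to 209 CPM against 235 to 257 CPM in Chd8+/+. All 6 choroid plexus markers were lower as well (DESeq2 calls for 3), with 322 to 380 CPM against 442 to 574 CPM. Of 5 endothelial markers, 4 were lower (DESeq2 calls for 3), with 168 to 187 CPM against 187 to 213 CPM, and all 5 interneuron markers, with 355 to 428 CPM against 446 to 464 CPM (DESeq2 call for 1). The neocortical markers summed to 832 to 840 CPM against 844 to 910 CPM, with 2 of 7 called by DESeq2, and none of the 4 astrocyte, 5 oligodendrocyte lineage or 5 microglia markers passed an unadjusted p of 0.05. Of 5 meningeal fibroblast markers 4 read higher in Chd8+/-, 1 of them at an unadjusted p under 0.05, with a sum of 206 to 267 CPM against 215 to 238 CPM. Of 6 markers of postmitotic neurons 4 read higher, and 2 passed lower and 1 higher. Of 6 progenitor markers 5 read lower, and 2 passed lower and 1 higher, and all 3 red blood cell markers tested read lower, 2 of them passing. The part of these cell types in the teneurin values was not tested.

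Whether the genotype difference itself differed between the stages was tested by the interaction over 12 libraries. The edgeR test called no gene of the 19676, with 1972 genes under an unadjusted p of 0.05. Among the members 5 had an unadjusted p under 0.05, all with a lower genotype difference at P5 than at E12.5 (Tenm2, Tenm3, Tenm4, Adgrl2 and Adgrl3), where 6.87% of all genes did. Tenm2 had the largest value, -0.55 ± 0.10 SE (edgeR adjusted p = 0.362), and DESeq2 called it (adjusted p = 0.00519) as one of the 0.0820% of genes called in that direction. The DESeq2 call of Tenm2 was absent in 4 of the 12 fits that leave out 1 library, those without Chd8+/+ replicate 1 at E12.5, without Chd8+/+ replicate 1 or 2 at P5 and without Chd8+/- replicate 1 at P5. Tenm3 followed with -0.49 ± 0.18 SE (edgeR adjusted p = 0.431), or -0.27 without Chd8+/- replicate 2 at E12.5. Adgrl1 and Flrt1 had positive values of 0.16 ± 0.08 SE and 0.11 ± 0.09 SE. The values at E12.5 and P5 come from separate libraries, and the interaction carries the error of all 4 groups.

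A list of 21 genes, 20 known to work with these proteins and 1 related receptor, called partner genes here, was read from the same fits, among them receptors of FLRTs (Unc5a to Unc5d, Robo1, Fgfr1, Fgfr2), other ligands of latrophilins (such as Nrxn3 and Cntn6), scaffolds and G proteins of latrophilins (Shank1 to Shank3, Gna12, Gna13), partners of teneurins (such as Dag1), the FLRT effector Rnd1 and, as the related receptor, Adgrl4. From E12.5 to P5 in Chd8+/+ 14 of the 21 rose and 6 fell by edgeR, where 41.4% of all genes were called higher and 41.7% lower. Cntn6, a contactin at synapses, had the steepest rise (3.99 ± 0.13 SE), from 3.76, 3.33 and 4.24 CPM to 60.7, 63.3 and 56.5 CPM. Rnd1, a small GTPase, rose by 3.61 ± 0.08 SE. At the other end Fgfr2 and Fgfr1, receptors for fibroblast growth factors, fell by 1.58 ± 0.06 SE and 0.99 ± 0.07 SE, and Unc5b, a netrin receptor, fell by 1.31 ± 0.16 SE. The median over the list was 1.67, beside -0.02 over all genes.

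Between genotypes at P5, 16 of the 21 partner genes had a negative and 5 a positive fold change, with a median of -0.04, while 49.6% of all genes were negative and their median was 0.00. The edgeR test called none of them at 0.05, 8 had an unadjusted p under 0.05 (7 lower and 1 higher, Rnd1), where 17.8% of all genes passed in either direction and 9.77% lower. DESeq2 called 4, all lower, beside 3.57% of all genes in that direction. Robo1, a Slit receptor that FLRT3 binds, read 151, 158 and 151 CPM in Chd8+/+ and 118, 129.9 and 128 CPM in Chd8+/- (-0.27 ± 0.04 SE, edgeR adjusted p = 0.0881, DESeq2 adjusted p = 1.52e-05). Nrxn3, a presynaptic neurexin, read 148, 146 and 143 CPM against 111, 133 and 130.5 CPM (-0.20 ± 0.06 SE, edgeR adjusted p = 0.139, DESeq2 adjusted p = 0.0198). Adgrl4, a receptor of endothelial cells, gave -0.32 ± 0.08 SE (DESeq2 adjusted p = 0.0211), beside the lower endothelial markers. The UNC5 receptors Unc5a to Unc5d lay at 0.06 ± 0.04 SE, -0.17 ± 0.11 SE, 0.00 ± 0.06 SE and -0.01 ± 0.04 SE, none of which passed an unadjusted p of 0.05, and Shank1 to Shank3 between -0.02 and 0.04.

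The gene most like a member over the 12 libraries was sought by Pearson's r of log2 CPM, as a description in which stage sets most of the likeness. For the teneurins the highest r was that of Tenm2 with Smap1 (r = 0.9993), for the latrophilins that of Adgrl1 with Cyp46a1 (r = 0.9996) and for the FLRTs that of Flrt3 with Heatr1 (r = 0.9997). Adgrl2 and Flrt2, which barely moved with stage, had lower best matches (Myom1, r = 0.8068, and Bcl11b, r = 0.9038).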

How the data were processed

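The deposited values were raw counts per gene and sequencing run. Per the labels and the methods, the authors trimmed reads with Trim Galore 0.4.1, aligned them to GRCm38.p4 with TopHat2 2.1.0, and made these counts with featureCounts 1.5.0 on Ensembl genes. The libraries were stranded, the P5 counting command sets no strand, and the E12.5 command is not given in the sources used here. The 2 runs of each library were summed.

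Genotypes were compared within a stage (3 against 3 libraries), and stages and the interaction in a model of all 12, with edgeR 4.0.16 (TMM, filterByExpr, quasi-likelihood test, Benjamini-Hochberg adjustment over all genes tested, threshold 0.05). SEs come from the moderated F and 95% intervals from its degrees of freedom. DESeq2 1.42.0 and limma-voom (limma 3.58.1) were alternatives. Of 46603 gene IDs 46005 matched a symbol. Levels of different genes were compared per kilobase of merged exon, using the deposited exon length. The edgeR, DESeq2 and limma-voom fits of genotype at P5 were tested on simulated data. So were the edgeR fits of the interaction and of the stage change in Chd8+/-. The offsets for span and exon length, the prior on fold changes, DESeq2's interaction and the terms for block and sex were not tested in this way. Figures were drawn with matplotlib.

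The members, partner genes and markers were chosen with earlier results of these data known. All members and Chd8 are named. Partner genes are named if called by either tool at P5, or if among the 3 highest or 3 lowest called changes with stage. Some partner genes that meet this rule are not reported here. The best match of each family is named as well, and other partner genes, markers and best matches named in the text were chosen after their values were seen. Replicates are separate samples by their labels; no source used here ties a library to a litter.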

Additional observations from a re-analysis of the deposited data

Results flagged for a closer look

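DESeq2's interaction test called a difference between the stages in the genotype difference of Tenm2 (adjusted p = 0.005192). The edgeR quasi-likelihood test did not call it (adjusted p = 0.362). The DESeq2 call was lost in some of the fits that leave out 1 library (DESeq2 adjusted p from 0.10 to 0.14). The log2 fold change of Tenm2 between Chd8+/- and Chd8+/+ was 0.24 at E12.5 (edgeR adjusted p = 0.942) and -0.30 at P5 (edgeR adjusted p = 0.0973).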

How the results depend on the processing

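Of 180 log2 fold changes of members refitted for the P5 genotype comparison, all kept their direction, and 15 passed the threshold where edgeR with its default filter did not. At P5 the 0 members called became 3 at an adjusted p under 0.1, 4 with DESeq2, 4 with DESeq2 and a prior on fold changes and 5 with all genes of at least 1 count; leaving out 1 library gave 0 to 2. The 0 partner genes called at P5 became 1, 4, 4 and 5 under the same settings, and 0 to 3. For the interaction DESeq2 and the unfiltered fit each called 1 member, Tenm2. How many of all genes were called with the prior and in the unfiltered fits is not given here. The counts under these settings therefore cannot be set against a share of all genes.

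The DESeq2 calls were examined further after seeing the data. Leaving out 1 library gave 1 to 5 members at P5, in fits that called 48 to 891 genes in all (653 with every library), and 0 to 2 for the interaction, in fits that called 2 to 111 (8 with every library). Offsets for genomic span gave 0 at P5, with 266 genes called in all. The cause was not tested. With offsets for exon length DESeq2 still called Tenm1, Tenm2 and Tenm3 at P5 (adjusted p = 0.0329, 0.00309 and 0.0294). That fit called only slightly more genes in all than the fit with offsets for genomic span, and far fewer than the fit without offsets. With the offsets for exon length the edgeR values of Tenm4, Adgrl2 and Adgrl3 were -0.05, -0.04 and -0.06. With limma-voom, and with edgeR under other size factors or a term for sex, the count of members called for genotype was 0. DESeq2 with a term for sex called 3 at P5, with 391 genes called in all.

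At E12.5, 4 members changed sign when 1 library was left out: Tenm1 (-0.2244 to 0.008542), Tenm4 (-0.004161 to 0.08607), Flrt2 (-0.02449 to 0.08779) and Flrt3 (-0.06179 to 0.01431). So did Flrt3 in the interaction (-0.05251 to 0.03842). All 130 refits of the stage change in Chd8+/+ kept their call, and 120 of 130 in Chd8+/-, where Adgrl2 lost its call in 8 and Tenm3 and Flrt2 gained one each without the E12.5 Chd8+/- replicate 2. Without division by exon length 37 of 40 family shares moved by more than 1 SD, and Tenm4 became the leading teneurin at E12.5 in Chd8+/+ (56.5%) and in Chd8+/- (53.5%). In E12.5 Chd8+/- Adgrl2 (46.35%) then also passed Adgrl1 (45.17%).

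The sources used here do not say whether equal replicate numbers mark paired libraries. Same-numbered libraries correlated in their deviations from the group means between -0.311 and -0.143 at E12.5 and between 0.029 and 0.255 at P5. Libraries with different numbers correlated between -0.121 and 0.272 at E12.5 and between -0.232 and 0.149 at P5. The P5 value of 0.255 belonged to the female library of each genotype. These values do not settle whether the P5 libraries were paired. With the replicate block the counts of members called were 0 for both genotype comparisons and the interaction and 8 for the stage change in either genotype, as without it, and 20 partner genes were called for stage in Chd8+/+, as without it.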
